A study of Rattus norvegicus with 2 samples.

Results

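The metallothionein genes Mt2A (ENSRNOG00000043098) and Mt3 (ENSRNOG00000018958) were read in single cells of the rat cochlear duct on postnatal days 1 (P1) and 7 (P7). They are 2 of the 32623 genes counted in each library, picked by symbol, and genes of the mitochondrial genome, whose symbols also begin with Mt, were not meant. The tissue came from Sprague-Dawley rats with no treatment or altered gene in the labels, pooled into 1 droplet library per age, so no value has a biological replicate and no test between ages was possible. Both genes were chosen with their levels in these data known, so every level below is a description.

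Metallothioneins are small proteins rich in cysteine that bind zinc and copper through their thiol groups, buffer the free zinc of the cell and react with oxidants. Mt1 and Mt2A are inducible in most tissues: zinc acts through Mtf1, the zinc sensing transcription factor that binds metal response elements in their promoters, and glucocorticoids raise them as well. Mt3 is best known from the brain, where it was described as an inhibitor of neurite growth and is bound up with the zinc of neurons, and it is much less inducible by metals.

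RefSeq places Mt1, Mt2A, Mt3 and Mt4 side by side on chromosome 19, in this order. The 250 bases upstream of the annotated starts of both genes are shown, since the element that zinc acts through lies there. They are read 5′ to 3′ along the gene, on the minus strand of the GRCr8 assembly, at chr19:10838709-10838958 for Mt2A and chr19:10856081-10856330 for Mt3. Capitals mark the core of the metal response element, searched as TGCACNC or TGCGCNC on both strands.
Mt2A: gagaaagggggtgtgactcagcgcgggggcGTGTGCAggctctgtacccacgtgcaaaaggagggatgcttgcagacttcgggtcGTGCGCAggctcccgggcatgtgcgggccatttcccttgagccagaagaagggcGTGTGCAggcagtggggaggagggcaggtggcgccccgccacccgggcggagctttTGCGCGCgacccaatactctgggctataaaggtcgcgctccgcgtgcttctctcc
Mt3: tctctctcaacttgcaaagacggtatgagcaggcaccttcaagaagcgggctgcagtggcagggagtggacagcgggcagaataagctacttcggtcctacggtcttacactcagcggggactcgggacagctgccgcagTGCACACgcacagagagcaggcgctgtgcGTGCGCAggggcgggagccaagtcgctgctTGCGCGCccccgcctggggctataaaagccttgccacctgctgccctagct

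The Mt2A promoter held 4 such cores, the nearest 55 bases upstream of the start. The Mt3 promoter held 3, beginning 110, 81 and 51 bases upstream. By the same search Mt1 had 6 cores and Mt4 had 1. Of 33469 promoters of this length, 20.6% held at least 1 core, 1.17% held at least 3 and 0.266% held at least 4. A match of letters is a description of the sequence and not a measured binding site, and the counts below were made on another assembly, rn6.

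After the limits on cells, 12779 cells were kept at P1 and 12581 at P7, with 98005495 and 93080129 UMIs (unique molecular identifiers, each a counted RNA molecule) and medians of 6565 and 6878 UMIs per cell. Cells were put into 13 marker gates, each asking for UMIs of several fixed marker genes, and the gates took 74.0% of the P1 and 80.9% of the P7 cells. The labels call the material greater epithelial ridge cells, the columnar cells medial to the hair cells, but the epithelium gate held only 189 and 121 cells. Hair cells numbered 22 at P1 and 0 at P7, and the other gated cells were mainly mesenchyme, glia, vessels, macrophages and neurons. The mesenchyme gate as a whole held 6685 cells at P1 and 6410 at P7. Together with cells that passed no cell type gate, it came to 9557 and 7837. A further 235 and 325 cells were ambiguous between gates. The libraries shared 60 cell barcodes. Levels are UMIs of the gene per 1000000 UMIs (CPM) of the summed cells of a gate, with exact 95% intervals that cover counting error only.

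In all kept cells Mt2A was lower and Mt3 slightly higher at P7. Mt2A had 4778 UMIs at P1 and 2847 at P7, or 48.8 CPM (interval 47.4 to 50.2) and 30.6 CPM (29.5 to 31.7). The P7 level stood to the P1 level at a log2 ratio of -0.67 (-0.74 to -0.61), against a median of 0.13 over 8222 genes of at least 10 CPM. Mt3 had 1310 and 1635 UMIs, or 13.4 CPM (12.7 to 14.1) and 17.6 CPM (16.7 to 18.4), a log2 ratio of 0.39 (0.29 to 0.50). In such sums a change in the mix of cell types and a change in the RNA per cell cannot be told apart. The difference in Mt2A also varied with the depth of the cells, and depth differed between cell types. At P7 the glia gate had a median of 5168 UMIs per cell and 6.42 CPM of Mt2A. The fibrocytes gated by Otor had a median of 8154 UMIs and 131 CPM. The parts of depth and of cell type in the difference were not tested. When the kept cells of each library were put into 3 groups of equal number by their UMIs, Mt2A was at 56.8 CPM at P1 and 7.46 CPM at P7 in the shallowest, 53.2 and 22.2 CPM in the middle and 43.8 (42.0 to 45.6) and 42.9 CPM (41.0 to 44.7) in the deepest group, where the intervals overlapped.

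Neither gene went past a log2 ratio of 1 in either direction, a size that 16.3% of the 8222 genes reached. For Mt3 the direction over all cells was not firm. With every cell thinned to 2000 UMIs its log2 ratio was -0.07 (-0.30 to 0.17), and at full depth the share of cells with a UMI was lower at P7, at 4.84% at P1 and 3.66% at P7. For Mt2A the share at full depth was 19.4% at P1 and 10.5% at P7.

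Across the gates the 2 genes took different places. Most Mt2A UMIs lay in cells that were mesenchymal or ungated, 90.4% at P1, in 74.8% of the cells, and 87.5% at P7, in 62.3% of the cells. The cells gated as mesenchyme held 62.6% in 52.3% of the cells at P1 and 70.1% in 51.0% at P7. Mt3 was highest in the epithelium in both libraries, followed at P7 by the glia.

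**Figure D1:**
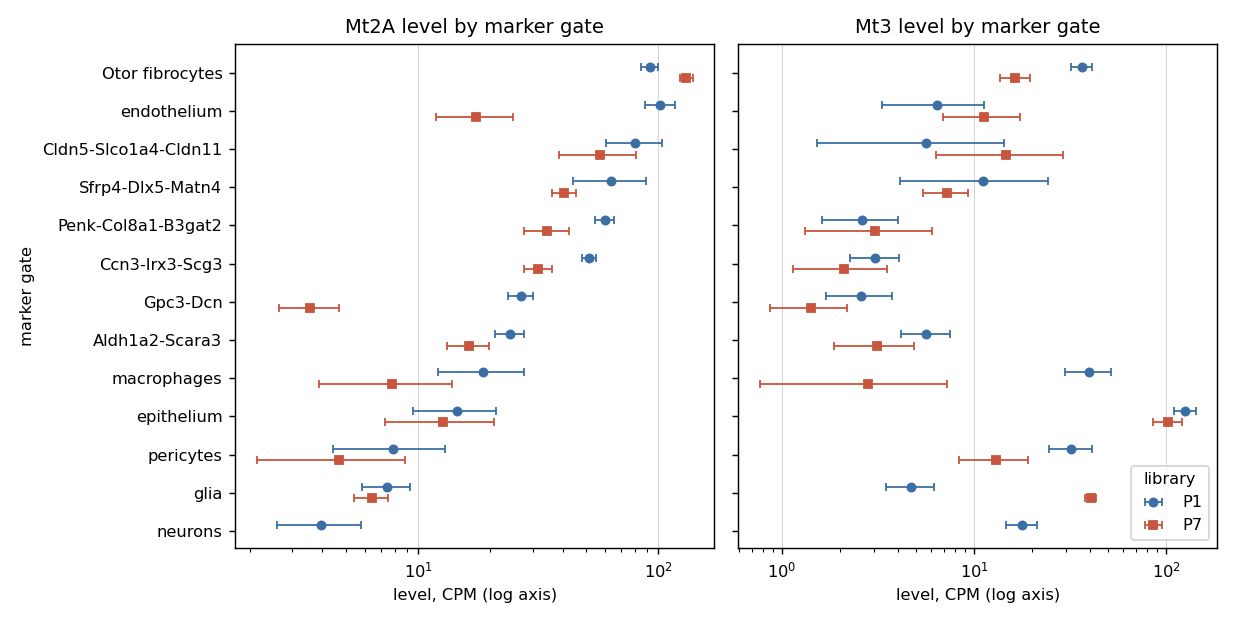
Level of Mt2A (left) and Mt3 (right) in each marker gate with at least 50 cells, in CPM on a log axis, with exact 95% Poisson intervals. Blue circles are the P1 and red squares the P7 library. For Mt2A the Otor fibrocyte gate was at 92.0 CPM at P1 and 131 CPM at P7, and for Mt3 the epithelium gate was at 125 and 102 CPM.

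At P1 the highest Mt2A levels were close together. Endothelium had 102 CPM (87.6 to 117), the fibrocytes gated by Otor, Crym and Otos 92.0 CPM (85.1 to 99.3), and the cells gated by the lateral wall genes Cldn5, Slco1a4 and Cldn11 79.8 CPM (60.4 to 103). The first place of the endothelium rested on 1 cell, without which it was at 78.1 CPM, below the Otor fibrocytes. Their intervals overlapped from each gate to the next, on down through the mesenchyme of the Sfrp4, Penk and Ccn3 gates at 63.5, 59.8 and 51.6 CPM.

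Below these came a gap, since the Gpc3-Dcn mesenchyme had 26.8 CPM and the Aldh1a2 mesenchyme 24.1 CPM. Macrophages had 18.7, epithelium 14.5, pericytes 7.89 and glia 7.42 CPM. Neurons, at 3.95 CPM (2.58 to 5.79), were lowest, 25.7-fold below the endothelium.

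At P7 the Otor fibrocytes were highest. They had 131 CPM (123 to 139), 2.30-fold above the next gate and with no overlap of intervals. The Cldn5-Slco1a4-Cldn11 cells had 57.0, the Sfrp4 mesenchyme 40.6, the Penk mesenchyme 34.4 and the Ccn3 mesenchyme 31.7 CPM, neighbours whose intervals overlapped. The endothelium had 17.5 CPM (11.9 to 24.8), and the Gpc3-Dcn mesenchyme was lowest at 3.55 CPM (2.63 to 4.68).

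Of the 12 gates with at least 50 cells in both libraries, 11 had less Mt2A at P7 and the median log2 ratio over gates was -0.67. The Otor fibrocytes were above 0, at 0.51 (0.36 to 0.65). With mitochondrial shares under 10%, and likewise without Scrublet doublets, 3 of the 12 gates were above 0, the glia (0.26 and 0.24) and the epithelium (0.10 and 0.065) being the others, with intervals that held 0. In the Gpc3-Dcn mesenchyme the log2 ratio was -2.92 (-3.38 to -2.48), in the endothelium -2.54 (-3.14 to -1.99) and in the macrophages -1.27 (-2.44 to -0.19). The macrophage interval held 0 without the top cell of each library, at -1.17 (-2.59 to 0.12), and without Scrublet doublets, at -1.08 (-2.29 to 0.052). In these 3 gates Mt2A was lower by more than a log2 ratio of 1, as were 7.21%, 6.28% and 6.14% of the genes measured in each.

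The Penk, Ccn3, Sfrp4 and Aldh1a2 mesenchyme lay between -0.80 and -0.57, with intervals below 0. In the Cldn5-Slco1a4-Cldn11 cells, pericytes, glia and epithelium the intervals held 0, so a difference was not detectable there at this depth.

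**Figure D2:**
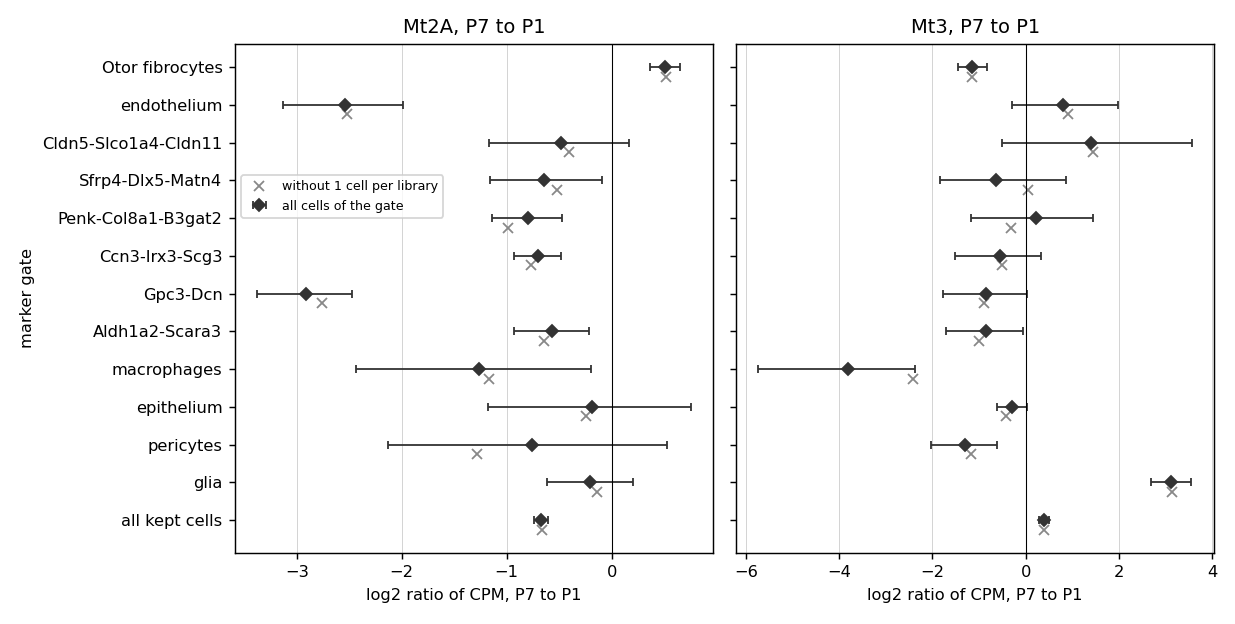
Log2 ratio of CPM, P7 to P1, of Mt2A (left) and Mt3 (right) in the 12 gates with at least 50 cells in both libraries and in all kept cells, with exact 95% intervals (diamonds) and without the cell with the most UMIs of the gene in each library (crosses). Of the diamonds for Mt2A, that of the Otor fibrocytes lay above 0, at 0.51, and Mt3 was highest in the glia, at 3.11. The cross for Mt3 in macrophages, at -2.41 in place of -3.81, lies far from its diamond.

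A subset of the mesenchyme was set apart after the values had been seen, as cells with UMIs of at least 3 of 4 genes found beside Mt2A in mesenchyme: Cytl1, a secreted cytokine-like protein, Cnmd, the matrix protein chondromodulin, Dpp4, a cell surface peptidase, and Ppp1r1b, a phosphatase inhibitor. Since the genes were chosen beside Mt2A in these libraries, a higher Mt2A level inside the subset than outside was fixed by the choice, and the values are a description. Among mesenchymal and ungated cells these cells numbered 592 at P1 and 902 at P7. They had 140 CPM (130 to 151) of Mt2A at P1 and 148 CPM (140 to 156) at P7, a log2 ratio of 0.08 (-0.06 to 0.21).

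Outside them the same mesenchymal and ungated cells had 54.7 CPM at P1 and 22.3 CPM at P7, a log2 ratio of -1.30 (-1.40 to -1.20). The Cytl1-Cnmd-Dpp4-Ppp1r1b cells held 14.9% of all Mt2A UMIs at P1, in 4.63% of the cells, and 48.1% at P7, in 7.17% of the cells. Within the Otor fibrocytes, cells with these genes had 117 CPM at P1 and 158 CPM at P7, whereas the other Otor fibrocytes had 83.0 and 83.5 CPM. The subset made up 236 of 1036 Otor fibrocytes at P1 and 513 of 924 at P7. It was also deeper than the other Otor fibrocytes, with medians of 7002 against 6064 UMIs at P1 and 9513 against 6938 at P7, and the part of depth in its size and its Mt2A level was not tested. Summed over the gate, 7 glial markers were at 33.5 CPM at P1 and 157 CPM at P7. The 7 macrophage markers were at 7.40 and 33.9 CPM. None of either list was at 0, and their part in the Mt2A level was not tested. Of the gate's own markers, Otor was at 20689 and 21984, Isyna1 at 2038 and 148, Car3 at 21.8 and 711 and Otos at 327 and 1995 CPM. In P1 Otor fibrocytes with at least 3 Mt2A UMIs Car3 was at 133 CPM, against 7.86 CPM in those with none. The part of these differences in the Mt2A ratio was not tested.

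**Figure D3:**
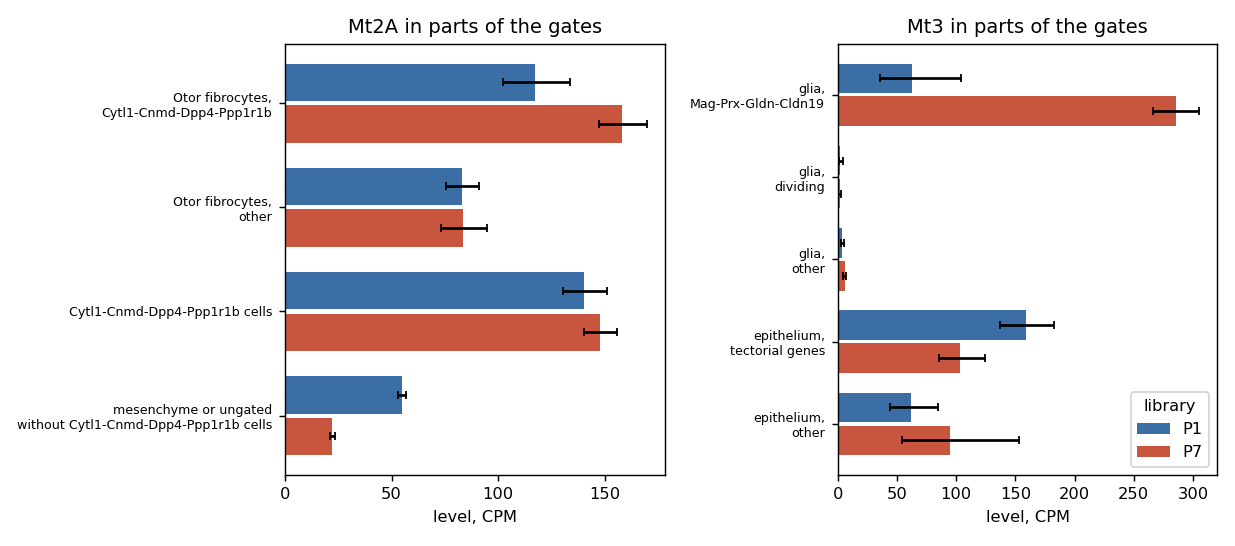
Mt2A in parts of the mesenchyme (left) and Mt3 in parts of the glia and epithelium (right), in CPM with exact 95% Poisson intervals. Blue bars are the P1 and red bars the P7 library. Mt2A was near 140 and 148 CPM in the Cytl1-Cnmd-Dpp4-Ppp1r1b cells and lower in the other mesenchymal and ungated cells, at 54.7 and 22.3 CPM, and Mt3 reached 286 CPM in the Mag-Prx-Gldn-Cldn19 glia of P7.

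Mt2A was also found in cells that no sub-gate took. The mesenchymal or ungated cells outside all sub-gates had 96.9 CPM (92.3 to 102) over 2735 cells at P1, which was 34.8% of all Mt2A UMIs of that library. At P7 they had 58.1 CPM (53.2 to 63.3) over 1480 cells. Their Otor level, 7843 CPM at P1 and 7294 CPM at P7, was above the 6101 and 6675 CPM of all kept cells and below the 20689 and 21984 CPM of the Otor fibrocyte gate.

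In the endothelium, few cells carried most of the Mt2A. Of 166 cells at P1, 42 had a UMI, 1 cell held 46 of the 189 UMIs, and without it the level was 78.1 CPM. At P7, 17 of 195 cells had a UMI and the largest count was 7. The 19 endothelial cells of P1 with at least 3 Mt2A UMIs were deeper than the 124 with none, with medians of 15268 and 8086 UMIs.

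By a rule of size among genes of at least 50 CPM, these 19 cells also had more Gal, a neuropeptide precursor, at 356 against 3.15 CPM. Lyve1, a hyaluronan receptor known from lymphatic endothelium, was at 304 against 43.2 CPM, and Mmrn1, a platelet and endothelial matrix protein, at 59.4 against 3.15 CPM. Mt1 was at 461 against 48.8 CPM. Summed over the gate, 4 erythroid markers were at 12809 CPM at P1 and 3983 CPM at P7, the 8 Otor fibrocyte markers at 1471 and 4162 CPM, and 7 glial markers at 36.0 and 377 CPM, with none of the erythroid list at 0 in either library. Their part in the Mt2A level was not tested.

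The Gpc3-Dcn mesenchyme also had 1 cell at P1 with 49 of its 281 Mt2A UMIs. Without it the P1 level was 22.2 CPM, still far above the 3.55 CPM of P7.

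Mt3 was concentrated in few cells. At P1 the epithelium had 125 CPM (110 to 143), 3.16-fold above the next gate. Macrophages at 39.6, Otor fibrocytes at 36.3 and pericytes at 32.1 CPM had overlapping intervals, though without 1 cell the macrophages were at 3.79 CPM, and neurons had 17.8 CPM (14.7 to 21.3). The remaining gates lay between 2.58 and 11.2 CPM, the lowest being the Gpc3-Dcn mesenchyme.

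At P7 the epithelium was again first at 102 CPM (85.5 to 122), followed by the glia at 40.5 CPM (38.0 to 43.2) and the Otor fibrocytes at 16.4 CPM (13.7 to 19.5). The intervals of these 3 gates did not overlap. From the Otor fibrocytes down to the endothelium, at 11.3 CPM, neighbours overlapped, and the Gpc3-Dcn mesenchyme was lowest at 1.42 CPM.

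In 4 of the 12 gates Mt3 was higher at P7, and the median log2 ratio over gates was -0.59. The glia had 4.69 CPM (3.48 to 6.19) at P1 and 40.5 CPM at P7, a log2 ratio of 3.11 (2.70 to 3.55), past a log2 ratio of 1, which 10.2% of the genes measured in glia reached upwards. The other 3 gates above 0 had intervals that held 0.

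At P7 most of the glial Mt3 lay in cells with genes of myelinating Schwann cells, with 846 of 941 UMIs, whereas at P1 they held 15 of 50. Glia with UMIs of at least 3 of 4 genes were set apart after the values had been seen. The genes were Mag, a myelin adhesion protein, and Prx, the Schwann cell protein periaxin. The others were Gldn, a protein of the node of Ranvier, and Cldn19, a tight junction protein of Schwann cells. Both Mag and Gldn were among the genes found beside Mt3 in glia. A higher Mt3 level in these glia was thus partly fixed by the choice and is a description. There were 25 such cells at P1 and 313 at P7. Their Mt3 level was 63.1 CPM (35.3 to 104), from 15 UMIs, at P1 and 286 CPM (267 to 305), from 846 UMIs, at P7, a log2 ratio of 2.18 (1.45 to 3.02).

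These 313 cells, 2.49% of the P7 cells, carried 51.7% of all Mt3 UMIs of the library. The dividing glia, by contrast, had 2.09 CPM at P1 and 1.52 CPM at P7, and the remaining glia had 3.74 and 5.81 CPM. The ratio of 3.11 of the whole gate thus holds both the larger number of these cells at P7 and their own ratio of 2.18. Mt2A was near background in the same cells, with 0 UMIs at P1, which allows up to 12.6 CPM, and 5.74 CPM (3.34 to 9.18) at P7.

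Markers of other cells were also summed in these glia. The 7 epithelium markers came to 37.9 CPM at P1, with 4 at 0, and to 66.1 CPM at P7, with 1 at 0. In the epithelium gate they came to 2122 and 3027 CPM. The 8 Otor fibrocyte markers came to 1157 CPM at P1 and 2295 CPM at P7, against 35261 and 38055 CPM in the Otor fibrocyte gate. The part of either list in the Mt3 level was not tested.

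Even among the Mag-Prx-Gldn-Cldn19 glia of P7, Mt3 was uneven. Of the 313 cells 216 had no UMI, 97 had at least 1, 30 had at least 10 and the highest count was 59. The 62 cells with at least 3 UMIs were deeper than the 216 with none, with medians of 12126.5 and 8063 UMIs. They had more S100a6, a calcium-binding protein, at 6994 against 1203 CPM, and more Pllp, the myelin membrane protein plasmolipin, at 1456 against 336 CPM. Mgll, the monoglyceride lipase, was at 93.3 against 6.76 CPM and Mt1 at 93.3 against 18.2 CPM.

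**Figure D4:**
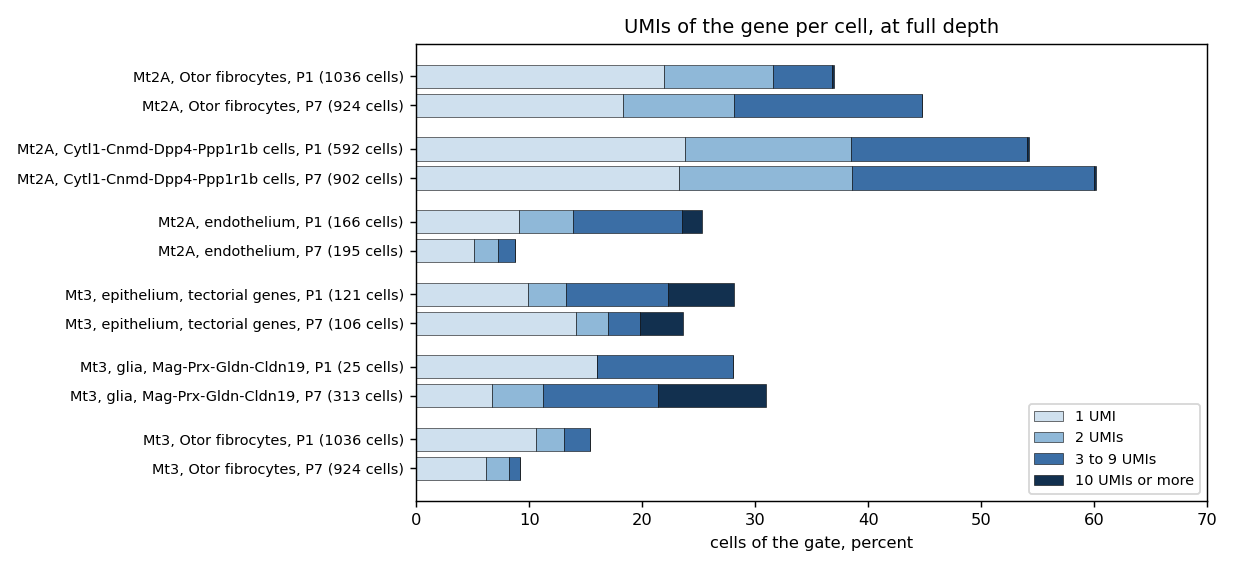
Share of cells, in percent, with 1, 2, 3 to 9 or at least 10 UMIs of Mt2A or Mt3 at full depth, for the gates and subsets with the highest levels, with the number of cells in brackets. Cells with none are the part not drawn. In the Mag-Prx-Gldn-Cldn19 glia of P7, 31.0% of 313 cells had Mt3, whereas in the Cytl1-Cnmd-Dpp4-Ppp1r1b cells 54.2% at P1 and 60.2% at P7 had Mt2A, mostly with few UMIs.

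In the epithelium 234 Mt3 UMIs came from 40 of 189 cells at P1 and 129 UMIs from 27 of 121 cells at P7. The log2 ratio was -0.29 (-0.61 to 0.02), so a difference was not detectable at this depth. Cells with at least 2 of 6 tectorial membrane genes, which make the matrix over the hair cells, were again separated after the values had been seen, with the same limit. They had 159 CPM (137 to 183) at P1 and 104 CPM (85.4 to 125) at P7, a log2 ratio of -0.61 (-0.96 to -0.27). The other epithelial cells, 68 and 15 in number, had 62.2 CPM (44.4 to 84.7) and 94.4 CPM (54.0 to 153). Only 6 of them at P1 and 2 at P7 had an Mt3 UMI. Without the top cell of each library their levels were 44.0 and 26.7 CPM, so the direction was not firm.

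The 22 epithelial cells of P1 with at least 3 Mt3 UMIs were not deeper than the 149 with none, with medians of 6788 and 8697 UMIs. They had more Tecta, the tectorial membrane protein alpha-tectorin, at 2649 against 258 CPM. Fgf10, a growth factor of the developing cochlea, was at 226 against 14.2 CPM, Dkk3, a secreted protein of the Dickkopf family, at 235 against 10.8 CPM and Sparcl1, a matricellular protein, at 4429 against 454 CPM. Dkk3 and Sparcl1 were also among the leading genes at P7, where 9 cells with at least 3 UMIs had 214 and 1938 CPM and 94 cells with none had 7.76 and 162 CPM.

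The Otor fibrocytes went the other way for Mt3 than for Mt2A. Their Mt3 level was 36.3 CPM (32.0 to 41.0) at P1 and 16.4 CPM at P7, a log2 ratio of -1.15 (-1.46 to -0.84), past a log2 ratio of 1, which 5.76% of the genes measured there reached downwards. The Otor fibrocytes with Cytl1, Cnmd, Dpp4 and Ppp1r1b had 31.4 and 24.1 CPM, with a log2 ratio of -0.38 whose interval, -0.84 to 0.09, held 0. The other Otor fibrocytes had 38.0 CPM (32.9 to 43.7) and 3.10 CPM (1.42 to 5.89), a log2 ratio of -3.61 (-4.76 to -2.66).

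For Mt3, which did not choose the subset, the level at P7 was thus higher inside it than beside it, though its cells were deeper and Mt3 in this gate was higher in deeper cells, at 3.03, 5.90 and 29.6 CPM from the shallowest to the deepest group of P7. At P1 the intervals inside the subset, 23.9 to 40.5 CPM, and beside it overlapped.

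Pericytes had 32.1 CPM of Mt3 at P1 and 13.0 CPM at P7, a log2 ratio of -1.31 (-2.04 to -0.61), and 6.33% of the genes measured in pericytes were lower by a log2 ratio of at least 1. In the macrophages the log2 ratio of -3.81 rested on a single cell: 48 of 53 Mt3 UMIs at P1 lay in it, and without it the P1 level was 3.79 CPM. Without the top cell of each library the log2 ratio was -2.41, from 5 UMIs at P1 and 1 UMI at P7. Neurons were too few at P7, with 46 cells, to compare.

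Shares of cells with a UMI depend on depth, so each cell was also thinned to 2000 UMIs, which left out 252 cells at P1 and 711 at P7. No gate is known to lack Mt2A, and the gates lowest in CPM served as background. These were the neurons of P1, with 0.570% of thinned cells (5.23% at a median of 19645 UMIs), and the Gpc3-Dcn mesenchyme of P7, with 0.660% (2.27% at a median of 7058 UMIs). The macrophages and the epithelium of P7 had 0 of 166 and 0 of 99 thinned cells with Mt2A, which allows shares of up to 1.81% and 3.03%.

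In the Otor fibrocytes 15.1% (13.0 to 17.5) of thinned cells had Mt2A at P1 and 19.6% (17.1 to 22.4) at P7, and at full depth 37.0% and 44.8%, at medians of 6278 and 8154 UMIs. In the endothelium 11.0% had Mt2A at P1 and 1.77% at P7 after thinning, 25.3% and 8.72% before it, at medians of 9198 and 7797 UMIs. Glia and pericytes, between 0.695% and 2.24% after thinning, had intervals that overlapped those of the background gates.

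For Mt3 the background was the Gpc3-Dcn mesenchyme, with 0.290% of thinned cells at P1 and 0.385% at P7. Full depth gave 1.78% and 0.950%, at medians of 6989 and 7058 UMIs. The Mag-Prx-Gldn-Cldn19 glia of P7 had 18.8% (14.6 to 23.6) after thinning and 31.0% before it, at a median of 8765 UMIs. The epithelium had 14.8% at P1 and 7.07% at P7 after thinning and 21.2% and 22.3% before it, at medians of 8451 and 9475 UMIs. Thinning left out 6 of the 189 epithelial cells at P1 but 22 of the 121 at P7, and at P7 the shallowest group of these cells had the most Mt3, 194 CPM. Neurons at P1 had 20.1% before but 3.13% (1.58 to 5.54) after thinning, and were the deepest cells.

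The level itself moved with the depth of the cell. In the 3 groups by UMIs, a split chosen after the values had been seen and made within each gate, Mt2A in the Otor fibrocytes of P1 was at 130, 98.0 and 72.1 CPM from the shallowest to the deepest. At P7 it was at 69.7, 135 and 155 CPM, so the order was turned round. The shallowest group therefore had less Mt2A at P7 than at P1 and the deepest group more. Groups of the same name were not of equal depth, since they were cut within each library. The medians at P1 and P7 were 4476 and 6040 UMIs in the shallowest and 9272 and 11212.5 in the deepest group. In all mesenchymal or ungated cells the shallowest group had 76.0 CPM at P1 and 16.6 CPM at P7, and the deepest 57.0 and 58.9 CPM.

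The Cytl1-Cnmd-Dpp4-Ppp1r1b cells were level at P7, with 148, 151 and 146 CPM, and declined at P1 from 210 to 116 CPM. Mt3 in the Mag-Prx-Gldn-Cldn19 glia of P7 was at 57.2, 213 and 421 CPM, and in the Otor fibrocytes of P1 at 10.2, 22.0 and 56.2 CPM. The epithelium had no such order, with 446, 45.7 and 77.8 CPM of Mt3 at P1. The part of depth in the ratios between ages was not tested.

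**Figure D5:**
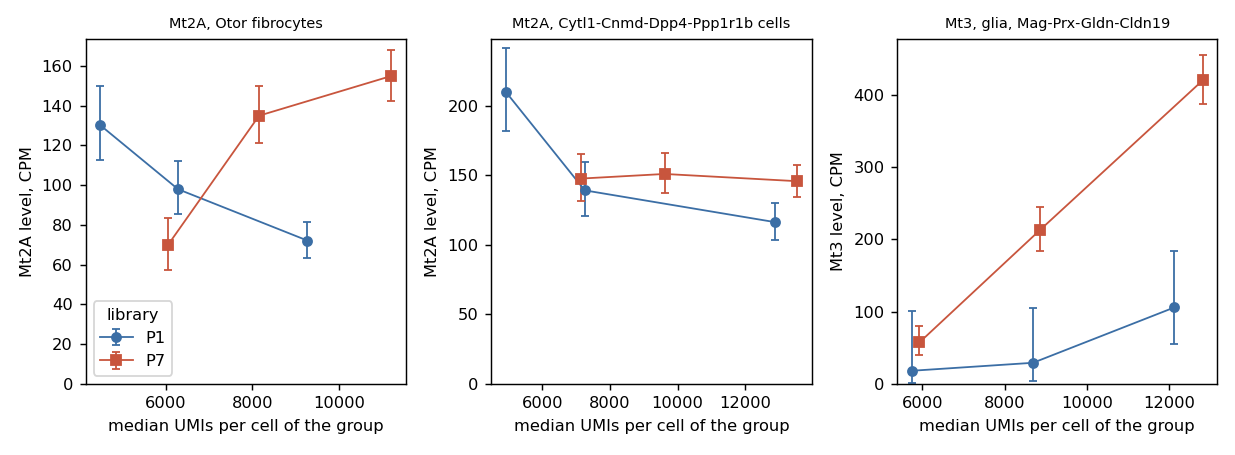
Level in CPM, with exact 95% Poisson intervals, of 3 equal groups of cells against the median UMIs per cell of the group, for Mt2A in Otor fibrocytes (left) and in Cytl1-Cnmd-Dpp4-Ppp1r1b cells (middle) and for Mt3 in Mag-Prx-Gldn-Cldn19 glia (right). Blue circles are the P1 and red squares the P7 library, and lines only join the groups. In Otor fibrocytes Mt2A was lower in deeper cells at P1, from 130 to 72.1 CPM, and higher in deeper cells at P7, from 69.7 to 155 CPM.

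Mt2A was found together with Mt1 and, less evenly, with Mt3. After thinning, 22.5% of the P1 cells with Mt2A also had Mt1, against 8.60% of those without, and at P7 the shares were 19.5% and 5.33%. Within the Otor fibrocytes they were 31.0% against 11.7% at P1 and 22.7% against 13.3% at P7. Over all thinned cells Mt3 was found in 2.89% of those with Mt2A and 1.64% of those without at P1, and in 2.70% and 1.41% at P7. In mesenchymal or ungated cells of P7 these shares were 2.55% and 0.737% for Mt3, whereas for Mt1 they were 82 of 431 cells with Mt2A and 5.78% of those without. Mt3 was found in 5.16% of the Otor fibrocytes with Mt2A and 5.63% of those without at P1, and in 2.27% and 2.50% at P7, where the shares at full depth were 14.2% and 5.10%. In the Mag-Prx-Gldn-Cldn19 glia of P7, 13.8% of the cells with Mt3 had Mt1, against 5.58% of those without.

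Mt1, the third measured member of the family, resembled Mt2A over all cells, at 57.7 CPM at P1 and 36.8 CPM at P7, a log2 ratio of -0.65 (-0.71 to -0.59). Its place was different. Macrophages were its highest gate at P1, at 360 CPM (328 to 393), and had 79.1 CPM (65.1 to 95.1) at P7. The endothelium was highest at P7, though its interval, 85.2 to 115 CPM, overlapped that of the Otor fibrocytes, 82.3 to 95.6 CPM. Without 1 cell the endothelium was at 84.1 CPM, below the Otor fibrocytes. Mt2A was at 18.7 and 7.76 CPM in macrophages. In the Otor fibrocytes Mt1 was at 72.2 and 88.8 CPM, a log2 ratio of 0.30 (0.13 to 0.47), and in the endothelium at 121 and 99.3 CPM, a log2 ratio of -0.29, where Mt2A had -2.54.

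RefSeq lists 4 pseudogenes of Mt1, so reads of near-identical copies could be split or lost in the counting and the Mt1 values are uncertain. Mt1m, itself listed as a pseudogene, had 47 and 24 UMIs in all kept cells, and Mt4, known from stratified epithelium, had 4 and 0. Both were below 10 CPM, so of 5 family members 3 were measured. None passed a log2 ratio of 1 in all kept cells, a size that 16.3% of the 8222 genes reached.

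The zinc sensor Mtf1 had 0 UMIs in both libraries. Whether the annotation used for the counting covers its 3′ end, where this kit reads, could not be checked, so the 0 sets no limit on its expression. Genes of zinc sensing and transport numbered 26, of which 13 reached 10 CPM in all kept cells. Of these 2 were higher by a log2 ratio of at least 1 at P7, a size that 9.74% of all genes reached, and 0 were lower, against 6.57% of all genes, with a median of 0.21. The importer Slc39a1 had 53.3 and 121 CPM and the Golgi transporter Slc30a6 5.45 and 18.2 CPM. Slc39a7, which releases zinc from the endoplasmic reticulum, was the most abundant at 154 and 204 CPM.

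The members of this list named next were highest in vessels. Slc39a8, an importer of zinc and manganese, was at 86.5 and 82.4 CPM in the endothelium and at most 11.3 CPM in glia, epithelium and Otor fibrocytes. Slc30a10, an exporter of manganese, was at 56.3 and 29.1 CPM in pericytes. It was not particular to them, with 19.5 and 17.2 CPM in the Gpc3-Dcn and 19.96 and 15.25 CPM in the Aldh1a2-Scara3 mesenchyme. Slc30a1, the zinc exporter that Mtf1 drives beside the metallothioneins, was at 40.8 CPM in the endothelium of P1 and 15.2 CPM at P7, a log2 ratio of -1.42 (-2.11 to -0.77). Its level was lower at P7 in all 12 gates, among them the Otor fibrocytes, at 4.33 and 2.03 CPM, where Mt2A was higher, and the glia, at 10.3 and 4.39 CPM. Some of these gates held few UMIs of it, such as 3 at P1 in the Sfrp4 mesenchyme and 7 and 3 in the Cldn5-Slco1a4-Cldn11 cells. The share of all genes that were lower in all 12 gates was not counted. A link between Slc30a1 and Mt2A was not tested.

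Of 11 copper handling genes 8 reached 10 CPM, of which 1 was higher and 0 lower, with a median log2 ratio of 0.20. Of all genes, 9.74% were higher and 6.57% lower by a log2 ratio of at least 1. The higher gene was Cox17, the copper chaperone of cytochrome oxidase, at 24.8 and 61.3 CPM. Atox1, the chaperone that hands copper to the secretory pathway, was most abundant at 452 and 439 CPM.

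Of 13 glucocorticoid response genes 9 reached 10 CPM, of which 1 was higher, 3 were lower and the median log2 ratio was -0.69. Of all genes, 9.74% were higher and 6.57% lower by a log2 ratio of at least 1. Zbtb16, a transcription factor that glucocorticoids induce, was at 25.4 and 3.60 CPM, Fkbp5, a chaperone of the glucocorticoid receptor, at 13.1 and 4.54 CPM, and Cebpd, a transcription factor of the acute phase, at 142 and 57.4 CPM. Hsd11b1, the enzyme that regenerates active glucocorticoid, was at 2.99 and 12.5 CPM. In the endothelium, where Mt2A was lower at P7, Zbtb16 had 93 and 5 UMIs, with Fkbp5 at 43.5 and 16.4 CPM and Tsc22d3, another induced gene, at 323 and 265 CPM. In the Otor fibrocytes, where Mt2A was higher, Zbtb16 was at 24.7 and 5.84 CPM, Fkbp5 at 5.16 and 1.27 CPM and Tsc22d3 at 160 and 163 CPM. Zbtb16 was also lower at P7 in every other gate compared. Among these were the pericytes, at 41.5 and 3.63 CPM, and the glia, at 9.76 and 0.818 CPM, where the Mt2A intervals held 0. The part of glucocorticoids in the Mt2A levels was not tested.

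Heat shock and immediate early genes also answer the dissociation of tissue. Of 10 measured, 4 were lower at P7 and 2 higher by a log2 ratio of at least 1, with a median of -0.93. Among all genes, 6.57% were lower and 9.74% higher by this size, the shares to set beside the next lists too. Fos was at 1141 and 346 CPM and Egr1 at 562 and 115 CPM, both transcription factors induced within minutes. Age and preparation coincide in these libraries, so their parts in the metallothionein levels cannot be told apart. Of the oxidative stress genes 4 were measured, with 1 higher, 0 lower and a median of -0.22, and Nfe2l2, the transcription factor of this response, was at 16.6 and 43.9 CPM. Of the 6 hypoxia response genes 1 was higher and 0 lower, with a median of 0.41, and within the Otor fibrocytes, where 13.5% of all genes were higher by this size, 3 were, Vegfa, the vascular growth factor, among them at 24.3 and 62.6 CPM.

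The genes most like each member were read from 25 levels, 1 for each gate and age, as Pearson's r of log2(CPM + 5). These points share 2 libraries and their depth, so r is a description. Nearest to Mt2A were the laminin receptor and ribosomal protein gene Rpsa (0.81), the cadherin Fat4 (0.80), Sncaip (0.77), the gate marker Crym (0.76) and LOC100362830 (0.76). Nearest to Mt3 were the endophilin gene Sh3glb2 (0.84), Ssx2ip (0.82), Bricd5 (0.81), the glycolytic enzyme Eno1 (0.79) and Mien1 (0.76). Between Mt2A and Mt3 r was -0.15, and Mt1 stood at 0.45 with Mt2A and 0.28 with Mt3.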

How the data were processed

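Cells from cochlear ducts of pooled rats were run on the 10x Chromium 3′ v3 kit, in 1 library per age. The authors made FASTQ files with bcl2fastq and used Cell Ranger 3.1.0 with the rat genome rn6, and the submitters' notes also name Seurat 3.1.1. The deposited values are UMI counts per gene and barcode, not normalized, 14068 barcodes at P1 and 14501 at P7. No step against free RNA or doublets is stated. The members and gene lists were chosen with earlier results of these data known.

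With the limits given in the study's methods, a cell was kept if it had over 500 but under 5000 genes, 500 UMIs or more, and a mitochondrial share below 25%. These limits left fewer cells at P1 and more at P7 than the study kept, and the cause was not found. A cell entered a gate with UMIs of at least 3 markers of a list, the list with the highest share of markers taking it, and ties were set aside. Cells gated as mesenchyme or not gated were given sub-gates by markers above the 75th percentile of their level: Otor fibrocytes 4 of 8, Gpc3-Dcn 3 of 6, Ccn3-Irx3-Scg3 2 of 4, Aldh1a2-Scara3 3 of 5, and 2 of 3 for the Penk, Sfrp4 and Cldn5 lists. The only marker not higher in its gate than in the other cells was Ceacam16 in the epithelium of P1.

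UMIs were summed per gate and given as CPM with exact Poisson intervals, shares with exact Clopper-Pearson intervals, and ratios with exact conditional binomial intervals, all at 95%. A count of 0 allows 3 counts. Genes of at least 10 CPM in the higher library counted as measured. Doublets were kept, and Scrublet, which marked 598 cells (4.68%) at P1 and 770 (6.12%) at P7, was an alternative. Named were both members in all gates, list genes by level or by a log2 ratio past 1, and the 5 genes most like each member. The scripts were tested on simulated data. Python 3.11.15, numpy 2.4.6, scipy 1.17.1, pandas 2.3.3, scanpy 1.11.5 and matplotlib 3.10.9 were used. Promoters came from RefSeq for GRCr8, with 4 of the 5 family members listed there.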

Additional observations from a re-analysis of the deposited data

Results flagged for a closer look

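For each gene the log2 ratio of P7 to P1 had one sign in 1 gate and the opposite sign in others, with intervals of both away from 0. With 1 library per age the difference was not tested. For Mt2A the Otor fibrocytes were at 0.51, whereas the endothelium was at -2.54, the macrophages at -1.27 (an interval that held 0 without the top cell of each library and without Scrublet doublets), and the mesenchyme of the Gpc3-Dcn gate at -2.92, the Ccn3-Irx3-Scg3 gate at -0.70, the Aldh1a2-Scara3 gate at -0.57, the Penk-Col8a1-B3gat2 gate at -0.80 and the Sfrp4-Dlx5-Matn4 gate at -0.65. For Mt3 the glia were at 3.11, whereas the pericytes were at -1.31, the Otor fibrocytes at -1.15, the Aldh1a2-Scara3 mesenchyme at -0.86 and the macrophages at -3.81, where 1 cell held most UMIs and the value without the top cell of each library was -2.41.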

How the results depend on the processing

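No paired analysis was possible because each age had 1 library. The log2 ratio of Mt2A in all kept cells, -0.67, was -0.59 with mitochondrial shares under 10%, -0.76 with totals without mitochondrial, ribosomal protein and haemoglobin genes, -1.01 after thinning, -1.04 as a mean of log-normalized values and -0.78 with a median-of-ratios factor. That of Mt3, 0.39, was 0.14 over all deposited barcodes, 0.50 without Scrublet doublets and 0.28 with the median-of-ratios factor, and turned to -0.065 after thinning and -0.13 as a mean of log-normalized values. Of the gate levels, 16 of 22 for Mt2A under stricter gates and 16 of 25 for Mt3 after thinning stayed within their intervals. Of 56 alternatives for the main values, 44 were counted as the same, 10 as moved and 2 as turned. For levels in all kept cells, the same meant inside the counting interval. For the medians over gates, all counted as the same, it meant inside the median of the gates' interval ends. For the gate levels and the most alike genes it meant that a set share of them agreed. Of 203 for gates, 178 stayed inside the counting interval, 24 moved and 1 turned. The 1 that turned was Mt3 in macrophages with mitochondrial shares under 10%, at 0.44 (-1.90 to 2.65). With clusters in place of gates the log2 ratio of Mt2A was 1.41 in Otor fibrocytes, -4.10 in endothelium and -3.44 (-5.32 to -2.08) in the Ccn3-Irx3-Scg3 mesenchyme, in place of -0.70, and that of Mt3 in glia 1.81. The clusters held other cells than the gates, and several lay almost wholly in 1 library. Those led by the Ccn3-Irx3-Scg3 list held 1637 and 67 cells at P1 but 36 and 116 at P7, where the gate held 885. Those led by the Otor fibrocyte list held 596 and 8 cells at P1 and 2 and 1109 at P7. The part of these differences in the ratios was not tested. Low counts limit many gates: Mt3 in endothelium, in the Cldn5-Slco1a4-Cldn11 cells and in the P7 neurons rested on 3 to 20 UMIs per library. At P7 it also rested on 4 UMIs in macrophages. In the Penk, Ccn3, Aldh1a2 and Gpc3-Dcn mesenchyme of P7 it had 8, 14, 19 and 20 UMIs, and in the Sfrp4 mesenchyme of P1 6.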

Other observations

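Cells too few for a gate also held metallothioneins. The 8 cells of P1 and 4 of P7 with melanocyte markers, pigment cells that lie among the strial cells, had 1167 CPM (879 to 1519) and 1833 CPM (1487 to 2236) of Mt1, above every gate, and 5 and 9 UMIs of Mt2A. They had 0 UMIs of Mt3 in both libraries. The 22 hair cells of P1 had 194 CPM (150 to 248) of Mt1, 18.2 CPM (6.68 to 39.6) of Mt2A and 24.3 CPM (10.5 to 47.8) of Mt3. These values rest on too few cells to compare with other gates.

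In a Leiden clustering of both libraries, made as an alternative to the gates, the cluster highest in Mt2A at P1 among those of at least 50 cells had 420 cells at 223 CPM and led no marker list. At P7 a cluster led by the Otor fibrocyte list had 1109 cells at 184 CPM. Both were nearly absent from the other library, with 6 and 8 cells. A glial cluster of 191 P7 cells had 516 CPM of Mt3, and its 18 cells of P1 had 92.8 CPM.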
